A study of Homo sapiens with 8 samples.

Results

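The expression of 9 genes with known roles in neuroblastoma or in neurotrophin signalling was examined in SH-SY5Y cells exposed to maleic acid. The genes were MYC, MYCN, ALK, RET, LIN28B, LMO1, NTRK2, NTRK3 and NGFR. Every probe annotated with 1 of these symbols alone was taken, which gave 16 of the 31741 probes and all 9 genes, out of 18255 genes with such a probe. NTRK2 had 5 probes, RET, LIN28B and NTRK3 had 2 probes each, and the other genes had 1 probe each. Where a gene had several probes, they are numbered by their mean signal, as a name only.

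SH-SY5Y is an established human neuroblastoma line. Its cells were kept for 24 h at 0 (control), 10, 50 or 100 μM maleic acid, a small dicarboxylic acid, and the study asked how neuronal gene expression followed the dose. Each dose was 1 RNA sample hybridised to 2 technical arrays with Cy5, 8 arrays in all. The limma tests below therefore compare RNA samples against array noise, with no measure of the spread between cultures, and a call (adjusted p under 0.05 over all probes) is described as beyond array noise.

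MYC and MYCN are related transcription factors that dimerise with MAX and bind E-boxes, and MYCN amplification marks aggressive neuroblastoma. ALK and RET are receptor tyrosine kinases of the developing sympathetic nervous system, and activating ALK mutations occur in neuroblastoma. LIN28B blocks maturation of let-7 microRNAs, and LMO1 is a LIM-only protein that bridges transcription factors. NTRK2 and NTRK3 encode the TrkB and TrkC receptors for BDNF and neurotrophin-3, and NGFR encodes p75, which binds all neurotrophins.

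LIN28B, which held the largest change of the 9 genes at 100 μM, has 2 start sites in RefSeq (GRCh38.p14, plus strand), and the 250 bases before each are shown because it also has 2 probes. The upstream start lies after chr6:104940715-104940964, and the downstream start lies after chr6:104956857-104957106. Capitals mark the E-box CACGTG, searched on both strands (it is its own reverse complement).
LIN28B upstream start: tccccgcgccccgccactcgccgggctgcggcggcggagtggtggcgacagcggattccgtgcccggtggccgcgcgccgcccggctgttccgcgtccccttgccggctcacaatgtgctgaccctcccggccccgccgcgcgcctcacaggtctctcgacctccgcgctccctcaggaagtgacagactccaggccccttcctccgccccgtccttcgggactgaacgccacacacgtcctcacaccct
LIN28B downstream start: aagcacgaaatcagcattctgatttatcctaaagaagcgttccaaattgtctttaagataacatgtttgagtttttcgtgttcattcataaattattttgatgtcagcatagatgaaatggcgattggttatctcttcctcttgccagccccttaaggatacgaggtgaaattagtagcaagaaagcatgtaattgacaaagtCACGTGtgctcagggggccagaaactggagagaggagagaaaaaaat
The E-box was found in the downstream window, 47 bases before the start, and not in the upstream one. Among 13 such windows of 7 of the genes, 2 held the motif, the other being a window of ALK, and 6.34% of 35116 RefSeq promoters of the same length held it. No window of MYC or NGFR was among the 13. Entries on the chromosome that carries MYC were left out of the 13 beforehand, but not out of the 35116. A second motif, TAATTA, was also searched for and was found in 1 of them, that of LMO1, and in 4.35% of the promoters. Which transcript each LIN28B probe reads was not given in the sources used here, so the windows cannot be assigned to probes.

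Of the marker lists, that of noradrenergic neuroblasts had the highest median log2 intensity in control (brightest probe of each gene), at 15.6. The medians were 8.455 for fibroblast, 6.38 for epithelial, 6.12 for glial and 5.61 for blood genes. All 9 measured noradrenergic neuroblast markers lay above background, taken as a normalised intensity of 50, and their summed intensity was 694857 at 100 μM and 788590 in control. Of the marker lists of other cell types, 6 of 6 fibroblast, 2 of 5 blood, 4 of 5 epithelial and 2 of 4 glial genes lay above background. Their summed intensities at 100 μM and in control were 20813 and 20962 for fibroblast, 410 and 377 for blood, 4030 and 2487 for epithelial, and 2839 and 2645 for glial genes. Single genes carried most of some sums, as PDGFRB (17206 and 18249) among fibroblast and KRT14 (3544 and 1973) among epithelial genes. PTPRC, CD3E, LYZ, ALB, GFAP and AQP4 did not lie above background at every dose. In such bulk RNA, fewer cells of a type and less RNA per cell cannot be told apart. The part of these values in the results below was not tested. The array medians ran from 336 to 524, the arrays of a dose correlated at 0.989 to 0.993 over all probes, and 2703 of 31741 probes lay under background at every dose.

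At 100 μM, 7 of the 16 probes lay beyond array noise (43.8%), where 19.4% of all probes did. Of these, 3 were higher (all probes 8.94%) and 4 were lower (all probes 10.4%). At an unadjusted p under 0.05 there were 9 of the 16 (all probes 35%). At 50 μM 1 probe was called, a lower one of LIN28B, and 0 higher, against 2.3% of all probes in either direction, 1.17% lower and 1.13% higher, and 6 of the 16 had an unadjusted p under 0.05 (all probes 28.3%). At 10 μM limma called 0 of the 16, against 3.29% of all probes (1.72% higher and 1.57% lower), and 8 of the 16 had an unadjusted p under 0.05, where 26.2% of all probes did. None passed a 2-fold change at any dose, where 2.33% of all probes did at 10 μM, 1.58% at 50 μM and 3.93% at 100 μM. Both arrays at 100 μM lay above both control arrays for 6 probes (all probes 28.4%) and below them for 6 (all probes 33.9%). At 50 μM 5 probes lay above (29.3%) and 7 below (33.3%), and at 10 μM 4 lay above (26.7%) and 7 below (32.9%). The 16 probes had a median log2 fold of 0.031 at 100 μM, against -0.03 for the whole table. All 3 comparisons use the same 2 control arrays.

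**Figure D1:**
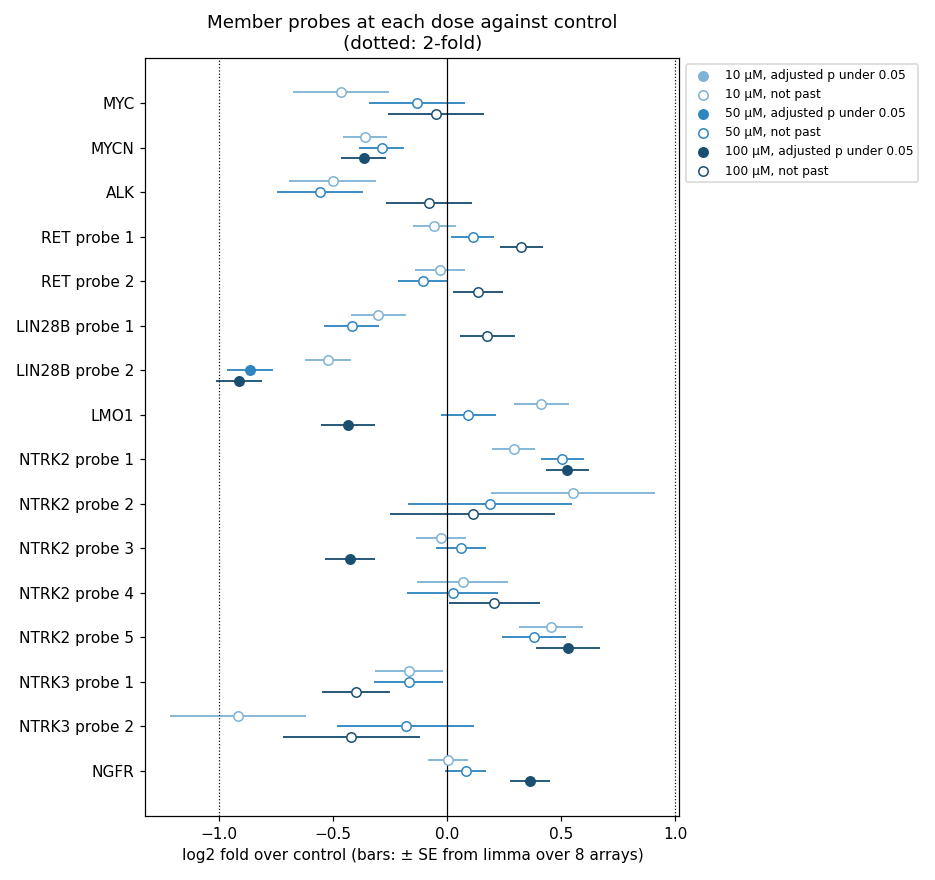
Log2 fold over control for the 16 probes at 10, 50 and 100 μM maleic acid, with bars for the limma standard error over 8 arrays, filled points for adjusted p under 0.05 and dotted lines at 2-fold. The second LIN28B probe lies farthest left at 100 μM at -0.91, and no point passes the dotted lines.

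MYCN fell at 100 μM, and MYC did not pass the test at any dose in the reported fit. The MYCN probe read 10.93 and 10.91 in control, 10.52 and 10.60 at 10 μM, 10.69 and 10.57 at 50 μM, with 10.51 and 10.59 at 100 μM, as normalised log2 intensity. All 6 arrays of treated cells lay below both control arrays, and the 3 treated doses overlapped each other. The log2 fold was -0.37 at 100 μM (SE 0.10, limma adjusted p = 0.043), a level 0.776 times that of control, and it was -0.36 at 10 μM (adjusted p = 0.0903) and -0.29 at 50 μM (adjusted p = 0.119). The fold of MYCN at 100 μM was -0.64 with median scaling and -0.96 without scaling, where the median of all probes was itself -0.34, and both were still called. The MYCN call was lost when any 1 of the 8 arrays was left out, with adjusted p from 0.0604 to 0.161.

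The MYC probe read 12.79 and 13.20 in control, 12.50 and 12.57 at 10 μM, 13.08 and 12.65 at 50 μM, with 12.76 and 13.13 at 100 μM. The arrays at 10 μM were the lowest, while those at 50 and 100 μM overlapped the control arrays. Arrays of 1 dose differed by up to 0.42, nearly as much as the range of the dose means, 0.46. The log2 fold of MYC was -0.47 at 10 μM (SE 0.21, limma adjusted p = 0.218), -0.13 at 50 μM and -0.05 at 100 μM (adjusted p = 0.892). Without scaling MYC was called lower at 10 μM (-1.1, adjusted p = 0.0193), where the median of all probes was itself -0.3. With median scaling it was not called there (-0.72, adjusted p = 0.0671).

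LIN28B gave the largest change of the 16 probes at 100 μM, at its second probe, and its first probe did not follow it. The second probe read 8.12 and 8.07 in control, 7.55 and 7.60 at 10 μM, 7.33 and 7.14 at 50 μM, with 7.16 and 7.20 at 100 μM. The dose means decreased at each step, with the arrays at 50 and 100 μM overlapping and both lying below those at 10 μM. The log2 fold was -0.52 at 10 μM (limma adjusted p = 0.0503), -0.86 at 50 μM (adjusted p = 0.0245) and -0.91 at 100 μM (SE 0.10, adjusted p = 0.00461), a level 0.531 times that of control. The call at 100 μM was kept in all 16 alternatives, including each left-out array. The call at 50 μM was kept in 7 of the 16 alternatives. Of the 8 alternatives with no array left out, 5 kept it. Among the 8 fits with 1 array left out, it was kept only without either array at 100 μM and was lost without any 1 of the other 6. Over these 8 fits the log2 fold at 50 μM ran from -0.975 to -0.773. Without scaling the fold at 50 μM was -0.57 (adjusted p = 0.104).

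The first LIN28B probe read 10.42 and 10.30 in control, 10.15 and 9.96 at 10 μM, 9.83 and 10.04 at 50 μM, with 10.50 and 10.57 at 100 μM. Its arrays were lower than control at 10 and 50 μM and higher at 100 μM. The log2 fold was -0.30, -0.42 and 0.18 at 10, 50 and 100 μM, with limma adjusted p of 0.175, 0.0891 and 0.347. The sign at 100 μM was negative with median scaling (-0.06) and without scaling (-0.38). The difference between the probes was not tested.

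LMO1 had its highest level at 10 μM and its lowest at 100 μM. The probe read 12.05 and 12.16 in control, 12.42 and 12.62 at 10 μM, 12.23 and 12.17 at 50 μM, with 11.59 and 11.76 at 100 μM. The arrays of the 4 doses did not overlap, in the order 10, 50, 0 and 100 μM from high to low. The log2 fold at 100 μM was -0.44 (SE 0.12, limma adjusted p = 0.0452), and at 10 μM it was 0.41 (adjusted p = 0.0971) with quantile normalisation and -0.23 without scaling. The fold at 100 μM was -0.77 with median scaling and -1.09 without scaling, both still called. Of the 8 fits with 1 array left out, only that without the second 10 μM array kept the call (adjusted p = 0.0499), and the adjusted p was 0.187 without the second control array.

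**Figure D2:**
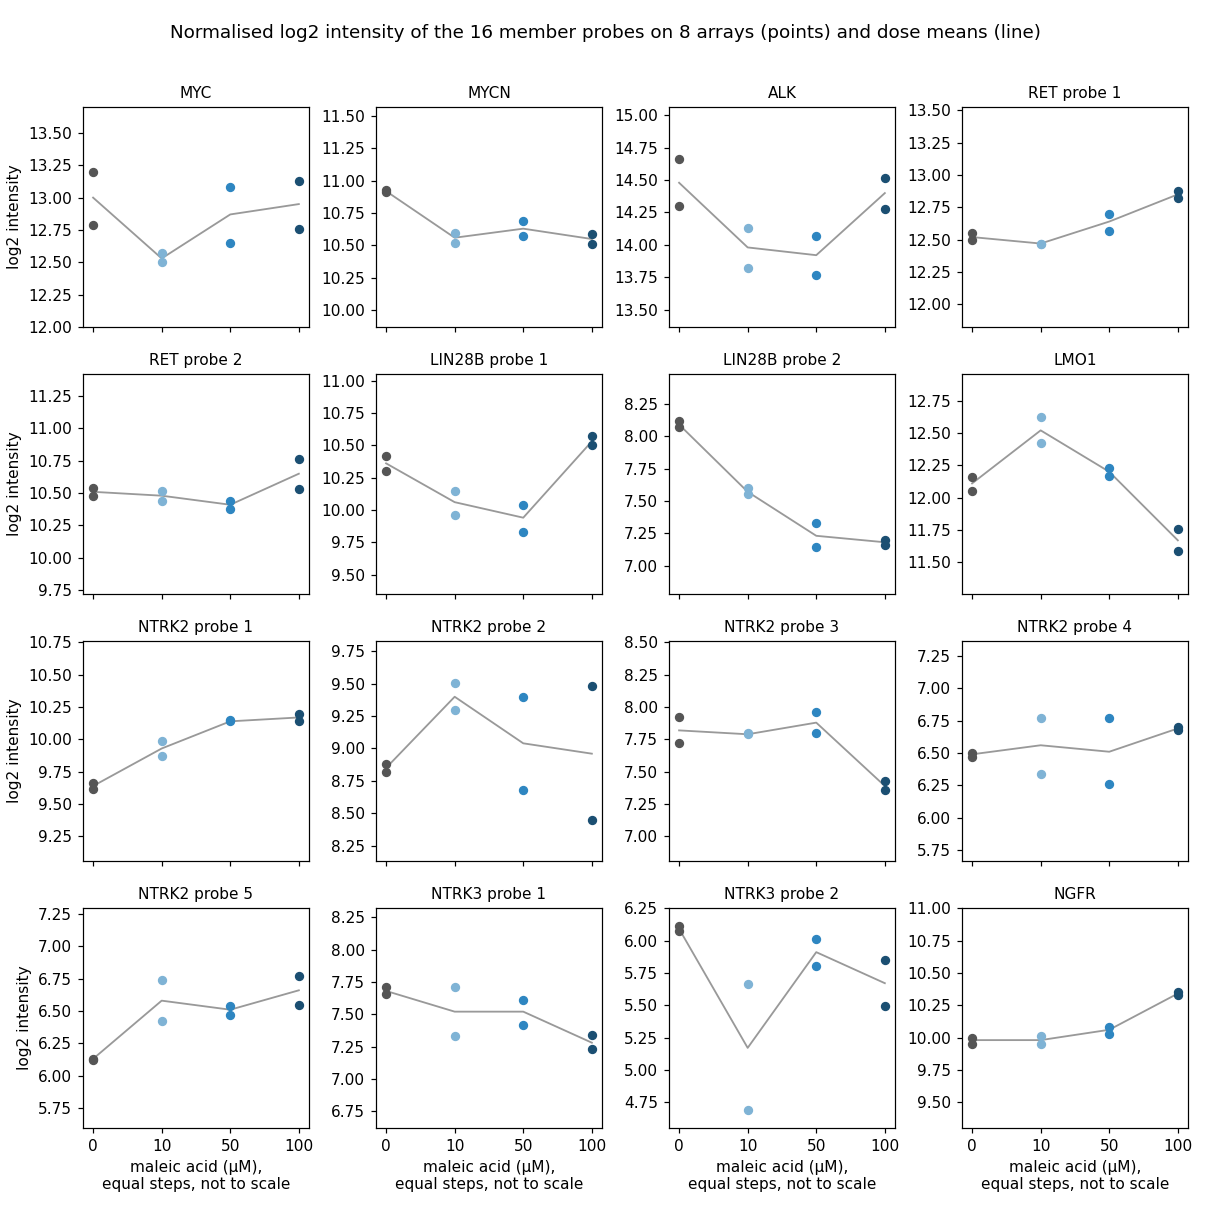
Normalised log2 intensity of each of the 16 probes by dose of maleic acid (0, 10, 50 and 100 μM in equal steps), with a point for each of the 2 technical arrays and a line through the dose means, every panel spanning the same log2 range. The second LIN28B probe has a mean of 7.18 at 100 μM, against 8.09 in control, and the second NTRK2 probe shows arrays 1.03 apart at 100 μM.

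Neither ALK nor RET passed the test in the reported fit. The ALK probe read 14.66 and 14.30 in control, 14.13 and 13.82 at 10 μM, 13.77 and 14.07 at 50 μM, with 14.28 and 14.52 at 100 μM. Both lower doses lay below both control arrays, and 100 μM overlapped control. The log2 fold of ALK was -0.50 at 10 μM (limma adjusted p = 0.157), -0.56 at 50 μM (adjusted p = 0.12) and -0.08 at 100 μM (SE 0.19, adjusted p = 0.803). With median scaling it was called at 10 μM (-0.73, adjusted p = 0.0456) and at 50 μM (-0.83, adjusted p = 0.03).

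The first RET probe read 12.55 and 12.50 in control, 12.47 and 12.47 at 10 μM, 12.57 and 12.70 at 50 μM, with 12.82 and 12.88 at 100 μM. Its 4 doses did not overlap, with 100 μM highest and 10 μM lowest. The log2 fold at 100 μM was 0.33 (SE 0.09, limma adjusted p = 0.0557), 0.02 with median scaling and -0.30 without scaling. It was called with cyclic loess (0.34, adjusted p = 0.0437). A floor of 32, an offset of 50 and a filter on dim probes also gave a call. The second RET probe read 10.54 and 10.48 in control, 10.44 and 10.52 at 10 μM, 10.38 and 10.44 at 50 μM, with 10.76 and 10.53 at 100 μM, with a log2 fold of 0.14 at 100 μM (adjusted p = 0.424). Its arrays at 100 μM overlapped control, and the sign was negative with median scaling (-0.12) and without scaling (-0.44). Without scaling this probe was called lower (limma adjusted p = 0.0345), where the median of all probes was itself -0.34.

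Of the neurotrophin receptors, NTRK2 had 2 probes that rose and 1 that fell at 100 μM, and NGFR rose. The first NTRK2 probe read 9.62 and 9.66 in control, 9.99 and 9.87 at 10 μM, 10.14 and 10.15 at 50 μM, with 10.20 and 10.14 at 100 μM. The dose means increased at each step, and all treated arrays lay above both control arrays. The log2 fold was 0.29 at 10 μM (limma adjusted p = 0.119), 0.51 at 50 μM (adjusted p = 0.0504) and 0.53 at 100 μM (SE 0.09, adjusted p = 0.0144), a 1.44-fold level. The call at 100 μM was lost without the first control array (adjusted p = 0.0794), the second control array (0.0669) or the first 100 μM array (0.0562), and with only the arrays of both doses in the fit (0.057). Without scaling the log2 fold was 0.05 (adjusted p = 0.817).

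The fifth NTRK2 probe read 6.13 and 6.12 in control, 6.42 and 6.74 at 10 μM, 6.54 and 6.47 at 50 μM, with 6.77 and 6.55 at 100 μM. All treated arrays lay above control, and those at 10 μM overlapped both higher doses. Its log2 fold at 100 μM was 0.53 (SE 0.14, limma adjusted p = 0.0408), 1.25 with median scaling and 0.93 without scaling. The probe was dim, with deposited intensities of 48 and 56 in control. With 50 added to each intensity the log2 fold was 0.33 and the call was lost (adjusted p = 0.0506). The replicate term lost it too (adjusted p = 0.069). The call was kept without either 10 μM array and lost without any 1 of the other 6, with adjusted p from 0.0343 to 0.153 over the 8.

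The third NTRK2 probe fell at 100 μM. It read 7.72 and 7.92 in control, 7.80 and 7.79 at 10 μM, 7.96 and 7.80 at 50 μM, with 7.43 and 7.36 at 100 μM. Only the arrays at 100 μM lay apart from control. The log2 fold was -0.42 (SE 0.11, limma adjusted p = 0.0435), and the call was lost without any 1 of the 8 arrays, with adjusted p from 0.0651 to 0.205. It was also lost with median scaling, where the log2 fold was -0.16 (adjusted p = 0.402), with cyclic loess (-0.38) and without scaling (-0.47, adjusted p = 0.0837).

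The remaining NTRK2 probes did not pass the test in the reported fit. The second read 8.82 and 8.88 in control, 9.51 and 9.30 at 10 μM, 8.68 and 9.40 at 50 μM, with 8.45 and 9.48 at 100 μM. Its arrays differed by 0.72 at 50 μM and by 1.03 at 100 μM, more than any of its log2 folds (0.55, 0.19 and 0.11). The fourth read 6.50 and 6.47 in control, 6.77 and 6.34 at 10 μM, 6.26 and 6.77 at 50 μM, with 6.68 and 6.70 at 100 μM, with a log2 fold of 0.21 at 100 μM (limma adjusted p = 0.51). With median scaling the fourth was called higher at 100 μM (0.82, limma adjusted p = 0.0469). Which TrkB isoform each probe reads was not given in the sources used here.

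NGFR read 10.00 and 9.95 in control, 9.95 and 10.01 at 10 μM, 10.08 and 10.03 at 50 μM, with 10.35 and 10.33 at 100 μM. The arrays at 100 μM lay above all others, and those at 10 μM overlapped control. The log2 fold was 0.36 at 100 μM (SE 0.09, limma adjusted p = 0.035), a 1.29-fold level, 0.17 with median scaling (adjusted p = 0.266) and -0.15 without scaling (adjusted p = 0.347). The call was lost without any 1 of the 8 arrays, with adjusted p from 0.0506 to 0.154.

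NTRK3 did not pass the test at either probe in the reported fit. The first read 7.71 and 7.66 in control, 7.33 and 7.71 at 10 μM, 7.61 and 7.42 at 50 μM, with 7.34 and 7.23 at 100 μM. Its arrays at 50 and 100 μM lay below control, and the log2 fold at 100 μM was -0.40 (SE 0.15, limma adjusted p = 0.107). Without scaling the first probe was called lower at 100 μM (-0.41, adjusted p = 0.0497), where the median of all probes was itself -0.34. The second read 6.11 and 6.07 in control, 4.69 and 5.66 at 10 μM, 6.01 and 5.80 at 50 μM, with 5.85 and 5.49 at 100 μM. It lay near background, with 2 of its 8 arrays under it, and its arrays at 10 μM differed by 0.97, more than its log2 fold there of -0.92 (adjusted p = 0.125). With median scaling the second probe was called higher at 50 μM (0.69, limma adjusted p = 0.0434), opposite in sign to the reported fit (-0.18).

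**Figure D3:**
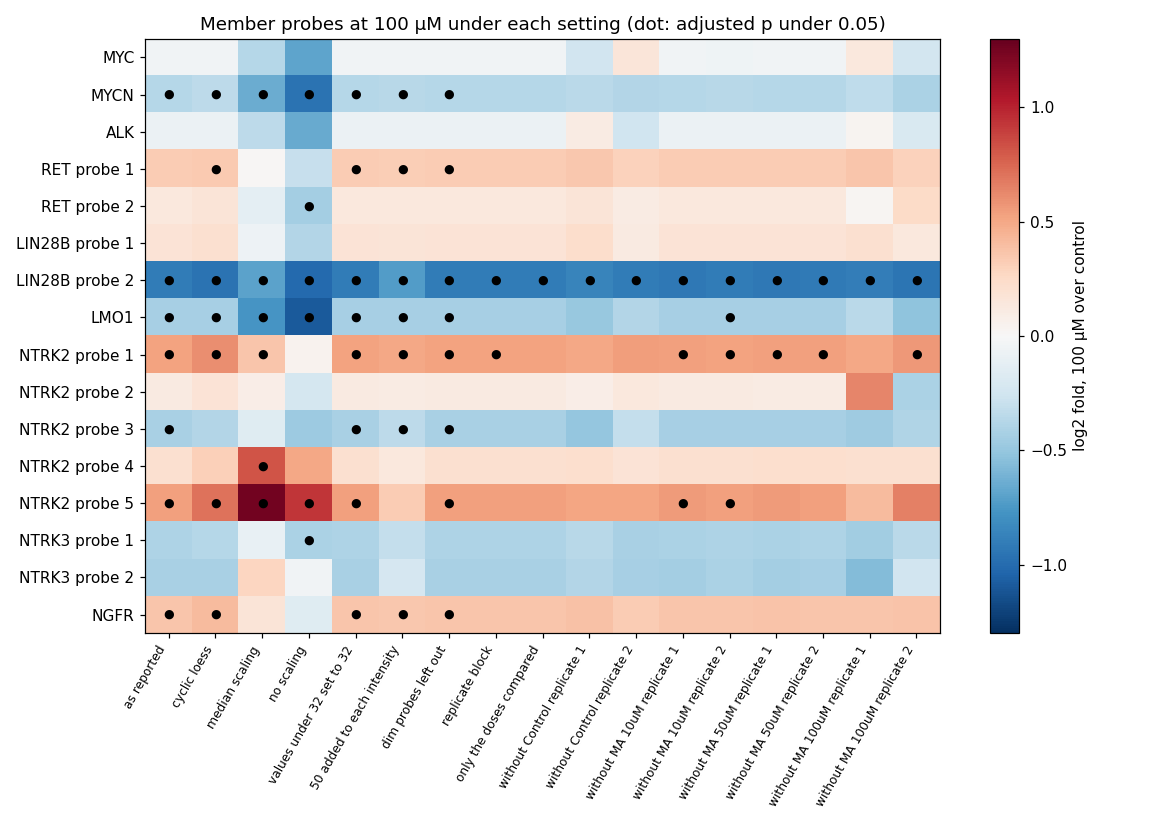
Log2 fold at 100 μM over control (colour, blue lower and red higher) for the 16 probes, in rows, under the reported processing and 16 alternatives, in columns, with a dot where the limma adjusted p was under 0.05. The second LIN28B probe carries a dot in every column, while MYCN, NGFR and the third NTRK2 probe carry none where an array was left out.

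The trend over the rank of the dose, fitted with limma to the 4 dose means, gave 0 calls among the 16 probes after adjustment, as among all probes (0 of 31741). At an unadjusted p under 0.05 it gave 2 of the 16, where 17.4% of all probes passed. The means increased at every step for the first NTRK2 probe and NGFR (all probes 9%) and decreased at every step for the second LIN28B probe and the first NTRK3 probe (all probes 9.27%). Some of these steps were minute. The log2 fold of NGFR at 10 μM was 0.0042, and that of the first NTRK3 probe was -0.167 at 10 μM and -0.169 at 50 μM.

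Genes that act with the 9 were described at 100 μM as means over each gene's probes, with changes on the log2 scale. Of 150 genes in 11 lists 141 were measured, 9 rose (all genes 8.35%) and 19 fell (all genes 11.9%), with a median log2 fold of -0.09 against -0.03 over 18255 genes. Of these 28 calls, 5 were kept in every alternative run, namely IGF2BP2, NHLH1, ALKAL1, PLCG1 and DIS3L2. Without the first control array 5 rose and 3 fell, and the counts without each of the other arrays ran from 3 to 8 higher and from 4 to 20 lower. Median scaling gave 14 higher and 33 lower, and no scaling gave 6 higher and 79 lower. Calls among all 31741 probes shifted too, from 2837 higher and 3311 lower as reported. They were 5118 higher and 4794 lower with median scaling, and 1649 higher and 11367 lower without scaling. The larger list counts therefore cannot be taken as particular to these lists.

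Among ligands and co-receptors few genes passed. Of the neurotrophins, 2 were measured and none was called. BDNF, a TrkB ligand, had a log2 fold of -0.15 (SE 0.12), and NTF4, another TrkB ligand, had 0.78 (SE 0.42, limma adjusted p = 0.232). The sign of BDNF was positive with median scaling (0.45). Of 13 other neurotrophin receptors and p75 partners, only KIDINS220, a scaffold of Trk receptors, passed, with a log2 fold of -0.39 (adjusted p = 0.0338). SORT1, the sortilin co-receptor of p75, had 0.0058.

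Of 9 RET ligands and co-receptors, GFRA4 rose by 0.64 (SE 0.16, limma adjusted p = 0.034, its 2 probes at 0.23 and 1.05) and the ligand ARTN fell by 0.44 (SE 0.12, adjusted p = 0.0478), a change that was 0.0028 with median scaling. The ligand NRTN had a log2 fold of 0.17, GDF15 0.14, and the co-receptors GFRA2 and GFRA3 -0.07 and -0.13. GDNF and GFRAL lay under background at both doses, and GFRA1 lay under it in control.

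Of 6 ALK ligands and relatives, ALKAL1, an activating ligand of ALK, rose and PTN fell. ALKAL1 read 4.27 and 4.69 in control, under background, 6.30 and 6.34 at 10 μM, 6.23 and 6.12 at 50 μM, with 6.68 and 6.38 at 100 μM. All treated arrays lay above background, which gave an at least 1.85-fold higher level at 100 μM. The limma adjusted p of 0.00257 is for the full log2 fold of 2.05, with control values taken as read, and not for that bound. The deposited intensities were 87 and 96 at 100 μM and 5 and 18 in control. PTN had a log2 fold of -0.40 (SE 0.09, adjusted p = 0.0255). MDK had 0.05, LTK 0.02 and ALKAL2 -0.11, the last with 4 arrays under background, and PTPRZ1 lay under background in control.

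Of 20 adaptors of receptor tyrosine kinases, 1 rose and 3 fell. PLCG1, a phospholipase recruited by Trk receptors, fell by 0.74 (SE 0.09, limma adjusted p = 0.00589), and FRS2, a docking protein, fell by 0.75 (SE 0.12, adjusted p = 0.0105). DOK6, a RET-binding adaptor, fell by 0.66. DOK5, of the same family, lay under background in control and at 10 and 50 μM and was at least 1.50-fold higher at 100 μM. Its limma adjusted p of 0.0397 is for the full log2 fold of 2.3 and not for that bound.

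Around MYC and MYCN, 1 of 10 genes of the dimerisation network fell and none rose. That was MXD1, a partner of MAX, at -0.48, whose probes ran from -0.93 to 0.17. MAX itself had 0.10 (limma adjusted p = 0.58), its probes running from -0.30 to 0.62. Of 12 genes of MYC and MYCN turnover 3 fell, namely FBXW7, a ubiquitin ligase subunit for both proteins, by 0.60 (SE 0.11, adjusted p = 0.0156), SKP2, another such subunit, by 0.43 (its probes at -0.81 and -0.05, the brighter one not called, adjusted p = 0.8) and the deubiquitinase USP28 by 0.39. Of 22 known targets of MYC and MYCN, 2 rose and none fell, with a median log2 fold of 0.0086. The direction of this count depended on the scaling. It was 2 higher and 1 lower by cyclic loess, 2 higher and 3 lower by median scaling, and 0 higher and 11 lower without scaling. Without scaling, all probes also leaned lower at 100 μM, with 1649 of 31741 called higher and 11367 lower. The count of targets was 0 in either direction with the replicate block and without any 1 of the arrays at 50 or 100 μM. It was 1 higher without either control array or with the brightest probe per gene. The genes were RRP9, a ribosome biogenesis factor, at 0.33, which was -0.32 without scaling, and the translation factor EIF4E at 0.36, whose 2 probes were at -0.16 and 0.88.

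In the LIN28 and let-7 pathway, 3 of 13 genes rose and 1 fell. IGF2BP2, an RNA-binding protein whose transcript is a let-7 target, read 8.37 and 8.21 in control, 10.17 and 10.28 at 10 μM, 9.58 and 9.61 at 50 μM, with 10.68 and 10.92 at 100 μM. The treated arrays all lay above control, in an order that did not follow the dose. Its log2 fold was 1.94, 1.31 and 2.51 at 10, 50 and 100 μM (SE 0.11 and limma adjusted p = 0.000307 at 100 μM), a 5.70-fold level. IGF2BP1 and HMGA2, also let-7 targets, rose by 0.56 and 0.54, the 2 probes of HMGA2 being at 0.19 and 0.89. DIS3L2, the nuclease that degrades pre-let-7 marked by LIN28, fell by 0.69 (SE 0.09, adjusted p = 0.00666).

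Of 16 partners and relatives of LMO1, 1 rose and 3 fell. NHLH1, a neuronal basic helix-loop-helix factor, read 8.09 and 8.13 in control, 9.04 and 9.04 at 10 μM, 8.97 and 8.98 at 50 μM, with 9.74 and 9.57 at 100 μM. All treated arrays lay above control, with a log2 fold of 1.54 at 100 μM (SE 0.09, limma adjusted p = 0.000673). LDB1, the LIM-domain binding partner of LMO proteins, fell by 0.58 (adjusted p = 0.00838), GATA3 by 0.42 and TCF12 by 0.40. Of 13 alternative runs, the call was kept in 12 for LDB1, 5 for GATA3 and 6 for TCF12.

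Of 18 other susceptibility and tumour suppressor genes of neuroblastoma, 5 fell and none rose (all genes 11.9% lower and 8.35% higher), with a median log2 fold of -0.21. With median scaling 8 fell and 2 rose, without scaling 14 fell, with the replicate block 2 fell, and with the brightest probe per gene 3 fell. Of all 31741 probes, 4794 were called lower with median scaling and 11367 without scaling, against 3311 as reported. Without the first control array 0 of the 18 genes fell, without the second 1, without the first 100 μM array 1 and without the second 3. HSD17B12 fell by 0.55 (SE 0.09, limma adjusted p = 0.0116), the chromatin remodeller ATRX by 0.55, the RAS inhibitor NF1 by 0.46, the kinesin KIF1B by 0.42 and the cell cycle inhibitor CDKN1B by 0.41. The 3 probes of KIF1B ran from -1.09 to 0.01 and those of NF1 from -0.93 to -0.16.

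**Figure D4:**
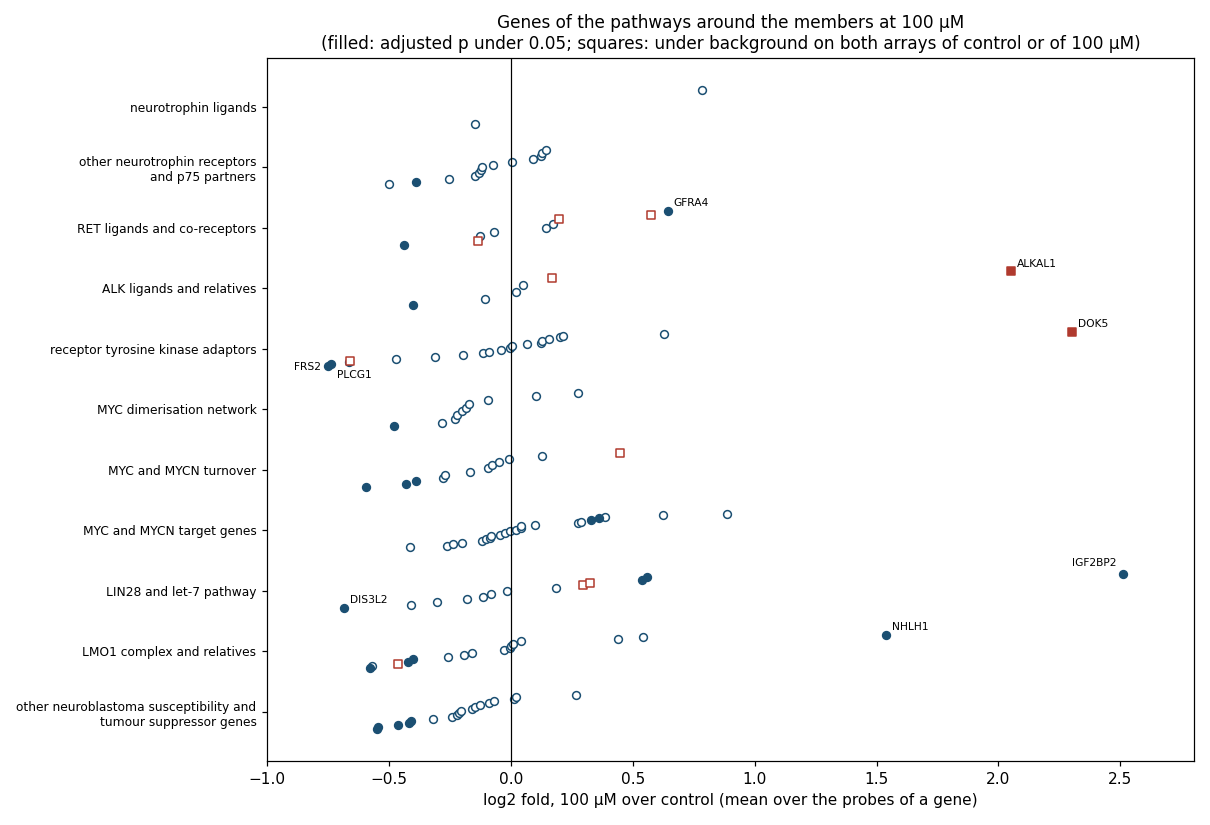
Log2 fold at 100 μM over control for the measured genes of 11 lists around the 9 genes, a point per gene (mean over its probes), filled where the limma adjusted p was under 0.05 and square where both arrays of control or of 100 μM lay under background. IGF2BP2 at 2.51 and NHLH1 at 1.54 lie farthest right among the genes above background.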

How the data were processed

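Expression was measured in SH-SY5Y cells at 4 doses of maleic acid, with 2 technical arrays of 1 RNA sample per dose (8 arrays). The authors scanned the slides and read the spots with GenePix 4.1, per the submitters' processing notes, and the deposited values are linear intensities, with 0 to 188 values per array at or below 0. The array medians ran from 336 to 524, so the deposited intensities share no common median.

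After a floor of 1, intensities were put on the log2 scale and quantile normalised (limma 3.58.1, run under R 4.3.3). Gene names were handled in Python 3.11.15, and plots were drawn with matplotlib 3.10.9. One limma fit over 8 arrays with dose as a factor gave two-sided p-values with Benjamini-Hochberg adjustment over all 31741 probes, or over 18255 genes for lists. A dose trend was fitted to the 4 dose means. The fit was checked on simulated data. Since the arrays are technical, p-values measure array noise only, and precision is limited by having 2 arrays a dose.

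Of the probes, 24658 had 1 symbol, 1002 several and 6081 none in the platform annotation. Of the first, 2177 symbols were updated and 77 kept as annotated. Background was set at a normalised intensity of 50, which was chosen with the values in view. Where both control arrays lay under it, the mean at 100 μM over that level was given as a bound.

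The genes and lists were chosen with earlier results of these data known. Named are the 9 genes with every probe, the ligand and co-receptor lists with SORT1 and MAX, and up to 3 called genes with the largest change of each other list. DOK6, HMGA2, TCF12, KIF1B and CDKN1B fall outside that rule and were chosen after their values were seen, as was which alternative values stand beside a result. Alternatives tried in place of the quantile step were median scaling, cyclic loess and unscaled values. Others were a floor of 32, an offset of 50, a filter on dim probes, a replicate term, only the doses compared, the log2 of mean linear values, the brightest probe per gene and each array left out.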

Additional observations from a re-analysis of the deposited data

How the results depend on the processing

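Of 816 values of single probes under alternatives, 672 were labelled as unchanged, 66 lost a call, 33 gained one and 45 changed sign. Unchanged meant the same sign and side of the threshold, but sign alone for the log2 of mean linear values, which had no p-value. In the 8 alternatives with a p-value and no single array left out, the second LIN28B probe kept its call at 100 μM in 8. MYCN, LMO1 and the first NTRK2 probe kept theirs in 6, the fifth NTRK2 probe in 5, NGFR in 4 and the third NTRK2 probe in 3. Of all probes, 19.4% were called at 100 μM as reported, 41% without scaling, 6.57% with only the doses compared, 4.58% without the first control array and 5.1% without the second. Without scaling the median log2 fold of all probes was -0.34 at 100 μM, -0.3 at 10 μM and 0.14 at 50 μM, and 1649 probes were higher and 11367 lower at 100 μM, against 2837 and 3311 with quantile normalisation, 3461 and 3316 with cyclic loess and 5118 and 4794 with median scaling. The causes were not tested.

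Of the 16 probes at 100 μM, no scaling called 1 higher and 5 lower (all probes 41% in either direction). The replicate term called 1 higher and 1 lower (all probes 14.8%). The fit of only the doses compared called 0 higher and 1 lower (all probes 6.57%). Leaving out 1 array gave 0 to 2 higher and 1 to 2 lower. At 50 μM, median scaling called 3 higher and 4 lower, no scaling 1 higher and 0 lower, the replicate term and the fit of only the doses compared 0 lower, and cyclic loess, the floor, the offset and the filter 1 higher each. Leaving out 1 array gave 0 to 1 in each direction. At 10 μM, median scaling called 1 higher and 3 lower, no scaling 1 higher and 8 lower, and cyclic loess, the floor, the offset and the filter 1 lower each. Without scaling the median log2 fold of all probes at 10 μM was itself -0.3. Shares of all probes under these alternatives were worked out for 100 μM only. The counts at 50 and 10 μM, and those over 2-fold below, therefore stand without such a share and say nothing particular to these genes. Over 2-fold, median scaling gave 1 probe at each dose, and no scaling gave 2 at 10 μM, 1 at 50 μM and 2 at 100 μM. Leaving out 1 array gave 0 to 1 at 10 μM. The trend stayed at 0 calls with cyclic loess, median scaling, no scaling and log10 of dose. Over the pathway lists, median scaling called 14 higher and 33 lower, no scaling 79 lower and the replicate term 12 lower, and leaving out 1 array gave 3 to 8 higher and 3 to 20 lower. Of all probes at 100 μM, median scaling called 31.2%, no scaling 41% and the replicate term 14.8%, against 19.4% as reported. Replicate numbers did not pair the samples, since deviations of like-numbered arrays correlated at -0.08 to 0.11 over 6 pairs of doses. With the replicate block, the called probes at 100 μM were the second LIN28B probe (limma adjusted p = 0.0138) and the first NTRK2 probe (adjusted p = 0.0301), and 14.8% of all probes were called.

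Signs changed as follows, as log2 folds over control. With cyclic loess at 10 μM, RET probe 2 was 0.0091 and NTRK2 probe 3 was 0.0077. With median scaling at 10 μM, NTRK2 probe 3 was 0.205, NTRK3 probe 1 0.128, NTRK3 probe 2 0.204 and NGFR -0.145. At 50 μM, RET probe 1 was -0.176, LMO1 -0.205, NTRK3 probe 1 0.111, NTRK3 probe 2 0.689 and NGFR -0.0912. At 100 μM, RET probe 2 was -0.124, LIN28B probe 1 -0.0613, NTRK3 probe 2 0.276, ARTN 0.0028, BDNF 0.451, GDNF 0.668, NRTN -0.158, GDF15 -0.0267, ALKAL2 0.655, MDK -0.127, SORT1 -0.137 and MAX -0.214. Without scaling at 10 μM, LMO1 was -0.225, NTRK2 probe 1 -0.219 and NGFR -0.529. At 50 μM, RET probe 1 was -0.106, LMO1 -0.134, NTRK3 probe 1 0.182, NTRK3 probe 2 0.76 and NGFR -0.0205. At 100 μM, RET probe 1 was -0.302, RET probe 2 -0.443, LIN28B probe 1 -0.38, NTRK2 probe 2 -0.229, NGFR -0.154, RRP9 -0.315, BDNF 0.132, GDNF 0.35, NRTN -0.477, GDF15 -0.345, ALKAL2 0.337, MDK -0.446, SORT1 -0.455 and MAX -0.533. With the brightest probe per gene, MXD1 was 0.165, EIF4E -0.157, KIF1B 0.0147 and GFRA1 -0.0509.

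With 1 array left out, signs differed over these ranges. At 10 μM, RET probe 2 ran from -0.0668 to 0.0083, NTRK2 probe 3 from -0.12 to 0.0737, NTRK2 probe 4 from -0.147 to 0.28, NTRK3 probe 1 from -0.356 to 0.0218 and NGFR from -0.0258 to 0.0352. At 50 μM, MYC ran from -0.343 to 0.0809, NTRK2 probe 2 from -0.173 to 0.549, NTRK2 probe 3 from -0.0364 to 0.157 and NTRK2 probe 4 from -0.231 to 0.289. At 100 μM, MYC ran from -0.252 to 0.156, ALK from -0.263 to 0.104, NTRK2 probe 2 from -0.407 to 0.632, GFRA2 from -0.217 to 0.0757, GFRAL from -0.0407 to 1.26, GDF15 from -0.0718 to 0.36, ALKAL2 from -0.213 to 0.0216, MDK from -0.0121 to 0.11, LTK from -0.15 to 0.191, PTPRZ1 from -0.0085 to 0.35, SORT1 from -0.0561 to 0.0656 and MAX from -0.0541 to 0.261. Signals near background, as those of NTRK3 probe 2 and NTRK2 probe 5, limit what a fold can show there.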

Other observations

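For the probe of each gene with the highest mean signal, the probes with the most similar pattern over the 8 arrays were sought among about 13555 single-symbol probes with a mean above the median of all probes. They are given as a description, since the best of so many is high by selection and the arrays share their RNA samples in pairs. For MYCN these were HLF (r = 0.994) and KIF16B (0.989), for MYC CARHSP1 (0.980) and CBX1 (0.977), for ALK DCAF16 (0.996) and FBXO3 (0.995), and for RET AKR1C1 (0.989) and EFHD1 (0.987). For the first LIN28B probe they were RBSN (0.994) and XRCC6 (0.991), for LMO1 LANCL1 (0.993) and SUPT3H (0.986), for NTRK2 MRGPRF (0.992) and TMEM94 (0.990), for NTRK3 SGIP1 (0.986) and EAF1 (0.975), and for NGFR TMC6 (0.985) and DLK2 (0.982).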
